A study of Homo sapiens with 4 samples.

Results

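The regions described here are all peaks of H3K9me2 on chromosome 13, taken from the 4 deposited peak lists of the series. The dense block among them was chosen by the percent of each window under peaks in these same lists. The chromosome 13 peaks numbered 16147 of 1000000 peaks, with 5622 and 3770 in the 2 libraries of cells given a guide RNA against CUX1 (gCUX1, replicates 1 and 2) and 3568 and 3187 in the 2 libraries of cells given a guide against HPRT (gHPRT, the control, replicates 1 and 2). All 4 libraries came from K562, an established human myeloid leukemia cell line, edited with CRISPR, with no other agent named in the labels. The labels call the gCUX1 cells a knock-out of CUX1, a homeodomain transcription factor, while the names inside the peak lists carry the tag "cux1kd" and those of gHPRT replicate 1 the tag "sub54", which the other lists lack. Whether that tag marks reads drawn from a larger library is not stated, and each value of gHPRT replicate 1 is read with that limit. Neither the share of edited cells nor whether a group was 1 clone is given in the sources used here. The labels number the libraries without naming separate cultures, so each p-value speaks only for these libraries, and the spread between them may be technical.

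H3K9me2 is histone H3 dimethylated on lysine 9, written mainly by the paired enzymes EHMT1 and EHMT2 (GLP and G9a). It covers broad, mostly silent stretches of chromatin, often gene-poor and at the edge of the nucleus. Chromosome 13 has a short arm of repeats that the hg19 assembly leaves blank and a long arm that is among the most gene-poor of the genome. Distally on that arm, in the order of coding genes and microRNA hosts that RefSeq gives on the GRCh38 build, SLITRK5 (a neuronal membrane protein) is followed by MIR17HG (the host gene of the miR-17-92 microRNA cluster, which is amplified or overexpressed in several blood cancers), by the glypican genes GPC5 and GPC6 (cell-surface heparan sulfate proteoglycans) and by DCT (an enzyme of melanin synthesis). No annotation on hg19, the build of the peaks, was used here, so no gene was placed in a window.

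Chromosome 13 was sparsely covered by peaks, apart from a dense block that began abruptly. Peaks ran from position 19233697 to 115109259 (hg19, counted from 1) and covered 7.68% and 5.79% of this span in the gCUX1 libraries and 7.97% and 5.92% in the gHPRT libraries. Over chromosomes 1 to 22 and X, peaks covered 14.4% and 19.9% in gCUX1 and 23.6% and 23.1% in gHPRT. By mean coverage chromosome 13 had rank 3 from the lowest of the 23 chromosomes in gCUX1 and rank 2 in gHPRT, with X lowest in both groups. Each list held 250000 peaks and reached down to a different strength: its weakest peak had a −log10 p of 1.49 and 1.35 in gCUX1 and of 1.25 and 1.27 in gHPRT. These limits bear on every comparison between the groups below. The sources used here give no read depth.

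**Figure D1:**
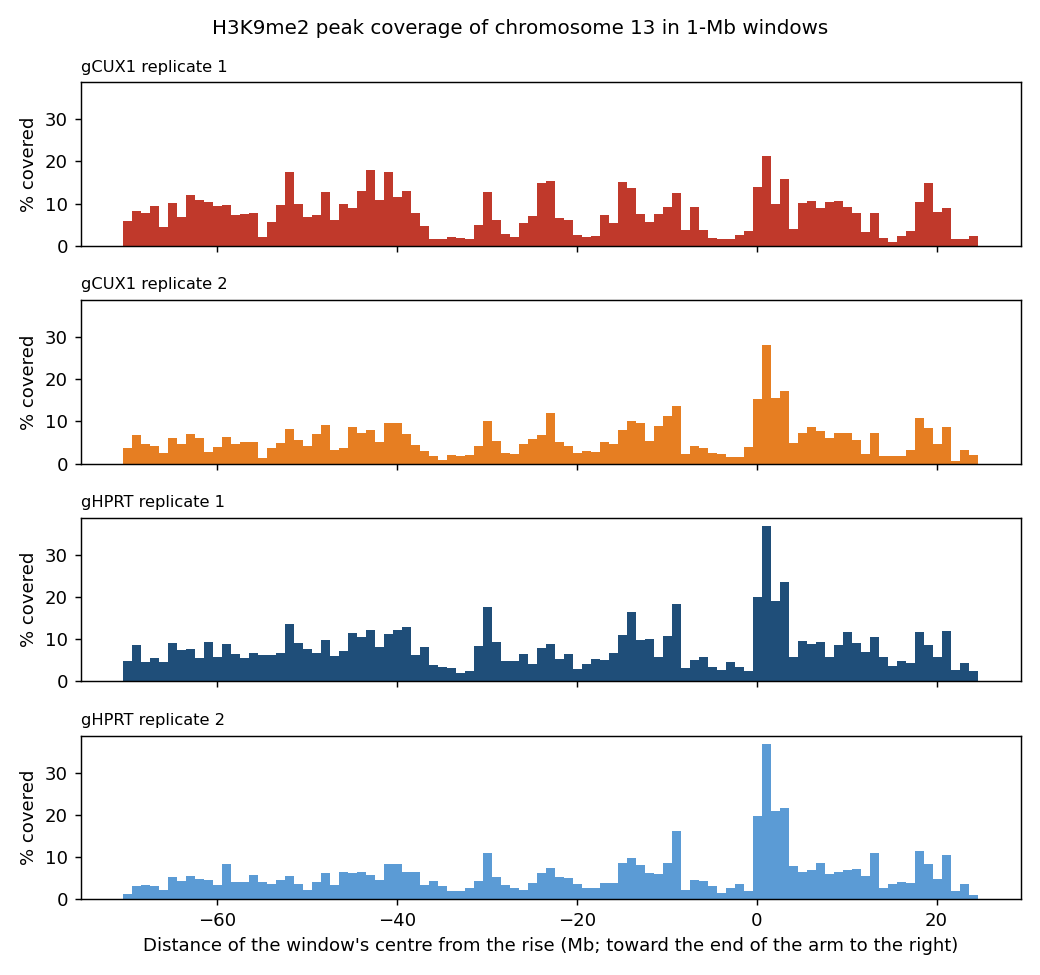
Percent of each complete 1-Mb window of chromosome 13 under H3K9me2 peaks, by distance of the window from the rise of the dense block, 1 panel per library (gCUX1 replicates 1 and 2 above gHPRT replicates 1 and 2). In all 4 panels the highest window is the one wholly inside the block, where coverage reaches 21.2% and 28.1% in gCUX1 and 36.9% and 36.8% in gHPRT. In gCUX1 replicate 1 the window that holds the rise (14.03%) is lower than some windows of the arm, which reach 17.96%.

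The block was placed by fitting 3 constant levels to the mean coverage of the 4 libraries in 100-kb windows from 60 Mb to the end of the chromosome. The fit put the rise at 90.4 Mb and the distal end at 92.4 Mb (chr13:90400001-92400000). Since these values chose the edges, the height of the block is a description and was not tested. Fitted in each library alone, the rise fell at 90.4 Mb in gCUX1 replicate 1, 90.5 Mb in gCUX1 replicate 2 and 90.4 Mb in both gHPRT libraries. The distal end fell at 92.4 Mb in both gCUX1 libraries and at 93.4 and 92.5 Mb in gHPRT replicates 1 and 2. The rise was thus at the same 100-kb window or its neighbour in every library. In gHPRT replicate 1 the fitted distal end took in a second dense stretch, described below, which ended at 93350000 in that library. Placed in bins of 1 kb, the block itself ended at 92434000 there.

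At the rise, coverage changed within 1 window. The last window before it (chr13:90300001-90400000) was covered to 2.49% and 3.58% in gCUX1 and 1.12% and 2.87% in gHPRT. The first window inside it (chr13:90400001-90500000) was covered to 16.6% and 13.9% in gCUX1 and 19.9% and 27.0% in gHPRT, and the next to 20.04% and 31.0% in gCUX1 and 28.2% and 33.7% in gHPRT. The 1 Mb before the rise was nearly bare, with 1.64% and 3.56% in gCUX1 and 2.28% and 1.75% in gHPRT. The step from the bare flank to the block was present in each library, and no value of the flank overlapped one of the first window inside. These values helped to place the edge, so the step is a description.

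The distal end was less even. The last window inside (chr13:92300001-92400000) had 14.9% and 22.02% in gCUX1 and 28.3% and 33.4% in gHPRT. The next window (chr13:92400001-92500000) had 5.51% and 10.3% in gCUX1 and 17.9% and 23.5% in gHPRT. The one after it (chr13:92500001-92600000) had 1.37% and 2.48% in gCUX1 and 13.6% and 5.37% in gHPRT. Coverage thus ran out over 1 to 2 windows in all libraries, and further out in the gHPRT libraries.

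Beyond the end, coverage came back in 2 shorter stretches. Taking as dense the windows from 88 to 97 Mb with a mean of at least 15%, a limit chosen after the values were seen, gave 3 runs: the block itself, chr13:92900001-93400000 and chr13:93800001-94000000. Each run was then placed again in every library alone in bins of 1 kb. The second stretch was fitted to start at 92946001 in all 4 libraries. Its first peak began at 92946119 and 92946153 in gCUX1 and at 92946348 and 92946163 in gHPRT, a range of 229 bp. Its last peak ended at 93347990 and 93349494 in gCUX1 and at 93349758 and 93349694 in gHPRT, a range of 1768 bp. Both ends of the second stretch were therefore shared by the 4 libraries to within the width of a single peak.

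The third stretch was fitted to start at 93853001 in all 4 libraries, and its first peak began at 93852848 and 93853006 in gCUX1 and at 93853056 and 93853208 in gHPRT, a range of 360 bp. Its fitted end was less sharp, at 93973000 and 94019000 in gCUX1 and at 94023000 and 94038000 in gHPRT. The block itself started at 90440001 and 90472001 in gCUX1 and at 90439001 in both gHPRT libraries. Its fitted end lay at 92352000 and 92393000 in gCUX1 and at 92434000 and 92475000 in gHPRT, a range of 123 kb. The starts of the second and the third stretches were thus the most closely shared of the 6 edges, and the end of the block the least. Because the edges were placed on coverage, their sharpness is a description of these lists.

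**Figure D2:**
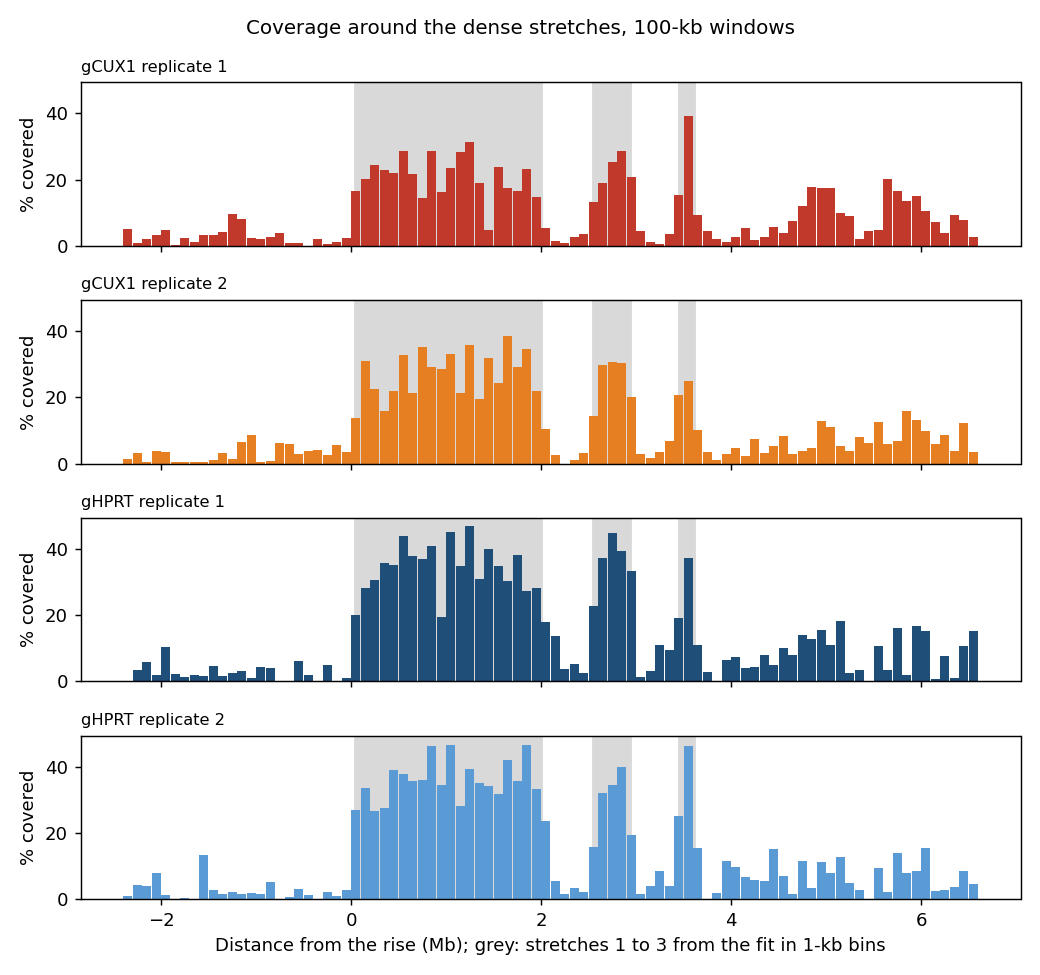
Percent of each 100-kb window under peaks, by distance from the rise at 90.4 Mb, 1 panel per library with gCUX1 above gHPRT. Grey bands mark the 3 dense stretches between the median edges of the 4 libraries in 1-kb bins, drawn alike in every panel. Windows between them fall back toward the level of the sparse arm. The window chr13:92400001-92500000, at the end of the first band, still has 17.9% and 23.5% in gHPRT.

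Around each of these edges coverage was compared over 100 kb on each side. At the start of the second stretch it was 2.44% and 2.59% before and 23.02% and 28.0% after in gCUX1, and 1.40% and 3.35% before and 37.9% and 24.5% after in gHPRT. At the start of the third it was 0.323% and 0.887% before and 39.3% and 31.4% after in gCUX1, and 5.22% and 2.03% before and 37.6% and 49.5% after in gHPRT. At the end of the second it was 35.8% and 32.4% before and 5.73% and 2.19% after in gCUX1, and 50.4% and 41.1% before and 4.88% and 2.05% after in gHPRT. At these 3 edges the bare and dense sides did not overlap in any library.

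**Figure D3:**
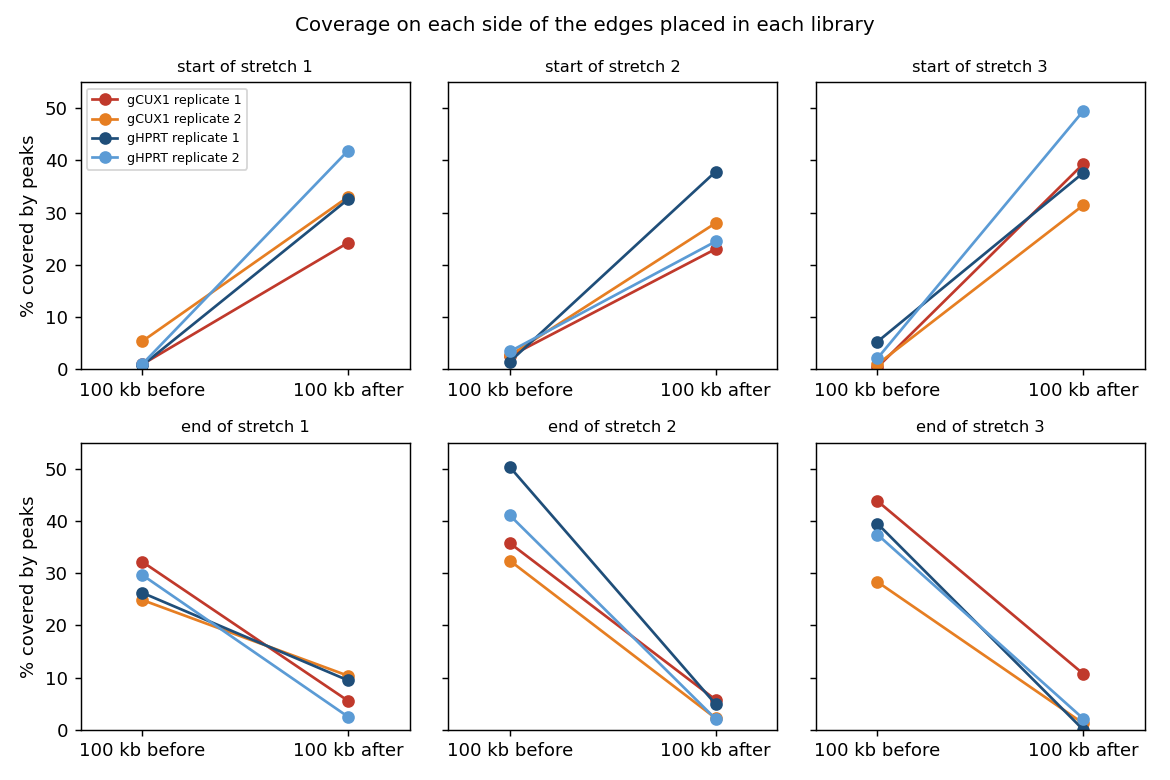
Percent covered in the 100 kb before and after the start (upper row) and end (lower row) of each dense stretch, with the edge placed in each library alone. Each line joins the 2 sides in 1 library. All lines go up at the starts and down at the ends, which follows from placing the edges on coverage. The smallest step is that of gCUX1 replicate 2 at the end of stretch 1, with 24.9% before and 10.3% after the edge.

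The 3 stretches had like coverage, and the gaps between them were sparse. Between the median edges, the first (chr13:90439001-92413000) was covered to 21.1% and 27.5% in gCUX1 and 34.9% and 36.4% in gHPRT. The second (chr13:92946001-93350000, 404 kb) was covered to 26.1% and 30.6% in gCUX1 and 43.1% and 34.7% in gHPRT. The third (chr13:93853001-94021000, 168 kb) was covered to 34.2% and 32.1% in gCUX1 and 37.8% and 43.8% in gHPRT. Both gCUX1 libraries lay below both gHPRT libraries in each stretch. The gap between the first and second was covered to 2.62% and 3.30% in gCUX1 and 7.58% and 6.59% in gHPRT, and the gap between the second and the third to 2.26% and 3.499% in gCUX1 and 6.15% and 4.09% in gHPRT.

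Inside the block, from 90.4 to 92.4 Mb, peaks were both more frequent and wider than on the rest of the chromosome. There were 93.5 and 117 peaks per Mb in the block in gCUX1 and 133.5 and 130.5 in gHPRT. Outside the block there were 57.9 and 37.7 peaks per Mb in gCUX1 and 35.2 and 31.2 in gHPRT. The median peak width in the block was 1838 and 1984 bp in gCUX1 and 2315 and 2466 bp in gHPRT. Outside the block it was 976 and 1077 bp in gCUX1 and 1627 and 1284 bp in gHPRT. In every library the block stood above the rest of the chromosome on both measures.

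The higher coverage of the block was made up differently in the libraries. The ratio of the block to the rest of the chromosome was 1.62 and 3.11 for peaks per Mb in gCUX1 and 3.80 and 4.19 in gHPRT. The ratio for mean peak width was 1.75 and 1.64 in gCUX1 and 1.22 and 1.62 in gHPRT. In gCUX1 replicate 1 width contributed slightly more than frequency, and in the other 3 libraries frequency contributed more.

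The peaks of the block were not stronger by the authors' deposited fold, the enrichment of a peak over the caller's background. Its median was 1.75 and 1.51 in the block in gCUX1 and 1.56 and 1.46 in gHPRT, against 1.96 and 1.77 outside in gCUX1 and 1.72 and 1.69 outside in gHPRT. The median deposited −log10 p was 1.65 and 1.56 in the block in gCUX1 and 1.46 and 1.51 in gHPRT, against 1.68 and 1.503 outside in gCUX1 and 1.38 and 1.41 outside in gHPRT. The fold was thus lower in the block in all 4 libraries while −log10 p was higher in 3 of them. None of the peaks in the block reached a q of 0.05 in any list, but on all of chromosome 13 only 2 did, in gCUX1 replicate 2. This is therefore not a trait of the block. The lists give neither reads nor DNA copies per region, so more copies of the DNA and more of the mark per copy cannot be told apart, here or at the edges above.

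Coverage within the block varied from window to window. Over its 20 windows of 100 kb, the lowest, median and highest coverage were 4.67%, 21.7% and 31.4% in gCUX1 replicate 1 and 13.9%, 28.8% and 38.4% in gCUX1 replicate 2. They were 19.5%, 35.1% and 47.03% in gHPRT replicate 1 and 26.5%, 35.4% and 46.5% in gHPRT replicate 2. The low window of gCUX1 replicate 1 (chr13:91800001-91900000) had 31.9% in gCUX1 replicate 2 and 40.2% and 34.2% in gHPRT. Spearman's rho between libraries over these 20 windows, given as a description, lay between 0.0737 for the 2 gCUX1 libraries and 0.683 for gCUX1 replicate 2 with gHPRT replicate 2. The libraries thus shared the block, while the order of coverage inside it was alike in some pairs and not in others.

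Against the whole genome the block was dense but not extreme. Its median window ranked at the 79.1 and 72.2 percentile of all 100-kb windows in gCUX1 and at the 74.2 and 76.5 percentile in gHPRT. The median of all windows was 14.5% and 20.8% in gCUX1 and 23.9% and 24.5% in gHPRT. On the rest of chromosome 13 the median window had 5.52% and 3.88% in gCUX1 and 5.81% and 3.90% in gHPRT. The typical window of the block thus lay above the median of the genome, and that of the remaining arm well below it, in every library.

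Bases under a peak in all 4 libraries came to 64.3 kb in the block and 109.9 kb on the rest of the chromosome. Such overlap rises with coverage, which differs between the places, so they are not compared on it. The longest such run in the block was chr13:92007725-92010475 (2751 bp), and a longer one of 4131 bp ended the second stretch (chr13:93343860-93347990). Another of 3576 bp opened the third (chr13:93853208-93856783). Outside the 3 stretches the longest was chr13:81465888-81469309 (3422 bp).

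The sparse arm had its own relief, which the libraries shared at the scale of 1 Mb. Spearman's rho between pairs of libraries over the 92 complete 1-Mb windows outside the block lay between 0.726 and 0.848, as a description, since neighbouring windows and the caller's settings are shared. At 100 kb it lay between 0.416 and 0.623 over 939 windows. By the mean of the 4 libraries, the highest 1-Mb window outside was the one from 93000001 to 94000000, which holds most of the second and the third stretches. Next came the window from 81000001 to 82000000, with 12.4% and 13.8% in gCUX1 and 18.4% and 16.2% in gHPRT. The window from 60000001 to 61000000 had 12.7% and 10.1% in gCUX1 and 17.5% and 10.95% in gHPRT.

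The barest windows lay near the end of the arm and in its middle. From 112000001 to 113000000 peaks covered 1.54% and 0.643% in gCUX1 and 2.61% and 2.05% in gHPRT. From 57000001 to 58000000 they covered 1.82% and 1.79% in gCUX1 and 2.08% and 1.97% in gHPRT. From 86000001 to 87000000, a few windows before the rise, they covered 1.71% and 2.20% in gCUX1 and 2.66% and 1.42% in gHPRT. In these 3 windows no library reached 3%, while every library was above 20% in the window from 91000001 to 92000000.

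Few other places on the chromosome reached the density of the block. Of 959 windows of 100 kb, 34 had a mean of at least 20%, a limit set after the values were seen. Of these, 25 touched the 3 stretches and 9 lay elsewhere. The densest of the 9 was chr13:108500001-108600000, with 37.5% and 40.7% in gCUX1 and 49.7% and 41.3% in gHPRT. A run of 4 windows from 81100001 to 81500000 held others, with 29.8% and 39.0% in gCUX1 and 41.9% and 27.7% in gHPRT in its second window. Its last window had 7.78% and 16.8% in gCUX1 and 25.8% and 33.1% in gHPRT. Unlike the block, none of these runs was longer than 400 kb.

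The comparison of gCUX1 with gHPRT asks how loss of CUX1 bears on H3K9me2, which the title of the study describes as reduced. In the lists as deposited, the block was less covered in both gCUX1 libraries and the rest of the chromosome was not. The block was covered to 20.9% and 27.1% in gCUX1 and 34.3% and 35.9% in gHPRT, with means of 24.01% ± 4.42 and 35.1% ± 1.11 (SD, n = 2 each). The groups did not overlap, and the difference was -11.1 points (two-sided exact permutation p = 0.3333; a design of 2 against 2 cannot give less). Outside the block coverage was 7.40% and 5.33% in gCUX1 and 7.41% and 5.29% in gHPRT, with means of 6.37% ± 1.46 and 6.35% ± 1.504 (SD, n = 2 each). Here the groups overlapped almost fully, with a difference of 0.02 points (exact permutation p = 1.0). Without gCUX1 replicate 1 that difference was -1.02 points and without gHPRT replicate 2 it was -1.04 points.

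**Figure D4:**
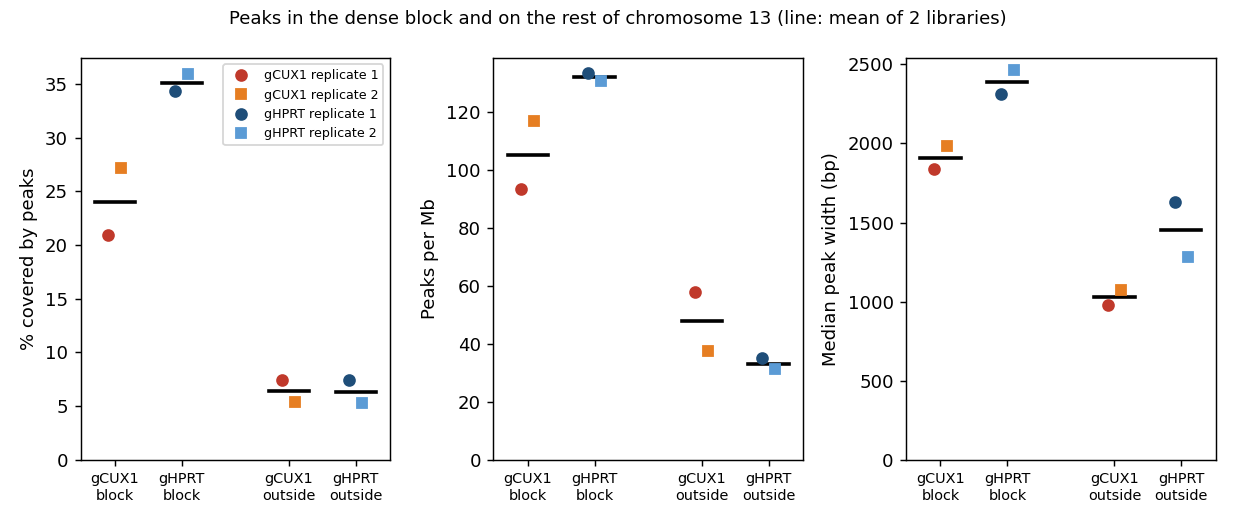
Percent covered, peaks per Mb and median peak width in the dense block and on the rest of chromosome 13. Each point is 1 library, with gCUX1 left of gHPRT, and lines are means of 2 libraries. In the block gCUX1 lies below gHPRT on all 3 measures. Outside it the groups overlap in percent covered, and gCUX1 has more listed peaks and narrower ones. Counted by serial numbers in the peak names, both differences in number reverse.

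The number of listed peaks differed in opposite directions in the 2 places. Each list held 250000 peaks, so fewer in 1 place go with more elsewhere. The peak names carry serial numbers that skip values. Counted by these numbers per Mb, both differences reversed, to 27.8 in the block and -17.8 outside. In the block there were 105.2 ± 16.6 peaks per Mb in gCUX1 and 132 ± 2.12 in gHPRT (SD, n = 2 each), a difference of -26.8. Outside the block there were 47.8 ± 14.3 in gCUX1 and 33.2 ± 2.82 in gHPRT (SD, n = 2 each), a difference of 14.6, or of 4.50 without gCUX1 replicate 1. Peaks were narrower in gCUX1 in both places, with differences in the median of -480 bp in the block and -429 bp outside. None of these 4 pairs of groups overlapped, and each exact permutation p was 0.3333, the smallest possible. Narrower gCUX1 peaks were not particular to chromosome 13. Over chromosomes 1 to 22 and X the median width was 1324 and 1900 bp in gCUX1 and 2335 and 2275 bp in gHPRT. The sparse chromosome 14 also had more peaks in gCUX1, with 66.0 and 47.7 per Mb against 43.2 and 39.6 in gHPRT.

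Peaks of at least 5 kb were a smaller share of the peaks in both gCUX1 libraries than in both gHPRT libraries, in the block and outside it. They made up 1.03% and 1.39% of the peaks outside in gCUX1 and 6.88% and 2.91% in gHPRT. In the block they made up 4.81% and 5.98% of the peaks in gCUX1 and 8.24% and 9.96% in gHPRT. In numbers these were 9 and 14 peaks in the block in gCUX1 and 22 and 26 in gHPRT.

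The direction of the difference in the block depended on how far each list was read. With 1 limit of −log10 p (1.49) for all lists, the block was covered to 19.6% in gCUX1 and 17.3% in gHPRT on average, a difference of 2.34 points. With 1 limit of −log10 q (0.0335) it was covered to 22% in gCUX1 and 15.7% in gHPRT, a difference of 6.32 points. With each list read to the same covered length the means were 21.3% in gCUX1 and 23.02% in gHPRT, a difference of -1.77 points (exact permutation p = 0.667 in these 3 readings). Outside the block the same 3 readings gave higher coverage in gCUX1, by 3.34, 1.88 and 2.67 points. Peaks per Mb in the block were then higher in gCUX1 too, by 22.3, 38.8 and 6.75. The median width in the block kept its direction in all 3.

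The ratio of the block to the rest of the chromosome compares 2 places read from 1 list. On the log2 scale it was 1.497 and 2.35 in gCUX1 and 2.21 and 2.76 in gHPRT. Replicate 1 was the lower of the 2 in each group, and gCUX1 replicate 2 lay between the gHPRT libraries. The means were 1.92 ± 0.60 in gCUX1 and 2.49 ± 0.39 in gHPRT (SD, n = 2 each), a difference of -0.57 (exact permutation p = 0.667), which was smaller than the SD of the gCUX1 libraries. With the limit on −log10 p the difference was -1.16, with that on −log10 q -0.78 and with equal covered length -0.98. In these readings the groups did not overlap (exact permutation p = 0.3333 in each). In the lists as deposited, the difference was -0.14 without gCUX1 replicate 1 and -0.29 without gHPRT replicate 2. With 1 library left in a group, no test is given.

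Single windows gave no called difference on chromosome 13. Of 933 windows of 100 kb tested on it, 0 passed (limma, Benjamini-Hochberg adjusted p under 0.05 over 27532 windows of the genome), where 0.0981% of all windows passed, each of them lower in gCUX1. At an unadjusted p under 0.05, 33 windows were lower in gCUX1, 3.54% against 14.3% over the genome, and 37 were higher, 3.97% against 0.694%. A fit without 1 library leaves a group unreplicated and takes its lone library to vary like the others. The counts of such fits show only how far the result depends on single libraries. Without gHPRT replicate 2, 30 of the 933 windows passed (limma), all lower in gCUX1, or 3.22% against 2.36% of all windows. Without gHPRT replicate 1, 7 passed, or 0.75% against 1.13%. Without gCUX1 replicate 2, 7 passed, 6 of them higher in gCUX1, or 0.75% against 8.4%.

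Of 96 windows of 1 Mb, 0 passed (limma), where 4.17% of all 2807 windows did, 4.1% lower and 0.0713% higher in gCUX1. At an unadjusted p under 0.05, 8 windows were lower, where 16.9% of all windows were, and 1 was higher, where 0.321% were. Both gCUX1 libraries lay below both gHPRT libraries in 29 of the 96, where 63.8% of all windows did, and above both in 9, where 1.46% did. After quantile normalization 6 were below, against 21.9% of all windows, and 43 above, against 24.2%. Windows lower in gCUX1 were thus a smaller share on chromosome 13 than over the genome, and windows higher in gCUX1 a larger one, with and without quantile normalization. Fits without 1 library again leave a group unreplicated, with the same limit. Leaving out 1 library gave 0 to 7 calls (limma). The 7 came without gCUX1 replicate 2, or 7.29% against 61.7% of all windows. Without gHPRT replicate 2 there were 4, or 4.17% against 3.81%, and without gCUX1 replicate 1 there was 1, or 1.04% against 12.8%.

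In the block both gCUX1 libraries lay below both gHPRT libraries in 15 of 20 windows of 100 kb and above both in 0, where 43.3% of all windows were below and 4.97% above. The 43.3% takes in sparse windows too. The median difference over the 20 windows was -10.97 points, against -5.93 points over all windows tested. These are points at unlike levels, since the block was chosen for high coverage. In gHPRT the median window had 35.1% and 35.4% in the block and 23.9% and 24.5% over the genome. All 20 had a lower mean in gCUX1, as had 469 of 913 on the rest of the chromosome. The share of all windows with a lower mean was not counted, though their median difference lay below 0. Outside the block 176 of 913 windows were below and 163 above, and the median difference was -0.14 points. After quantile normalization, by which every library takes the same set of values, 3 windows of the block were below and 1 above, with a median difference of -1.73 points. Outside, 95 were then below and 248 above, where over the genome 19% were below and 18.9% above.

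**Figure D5:**
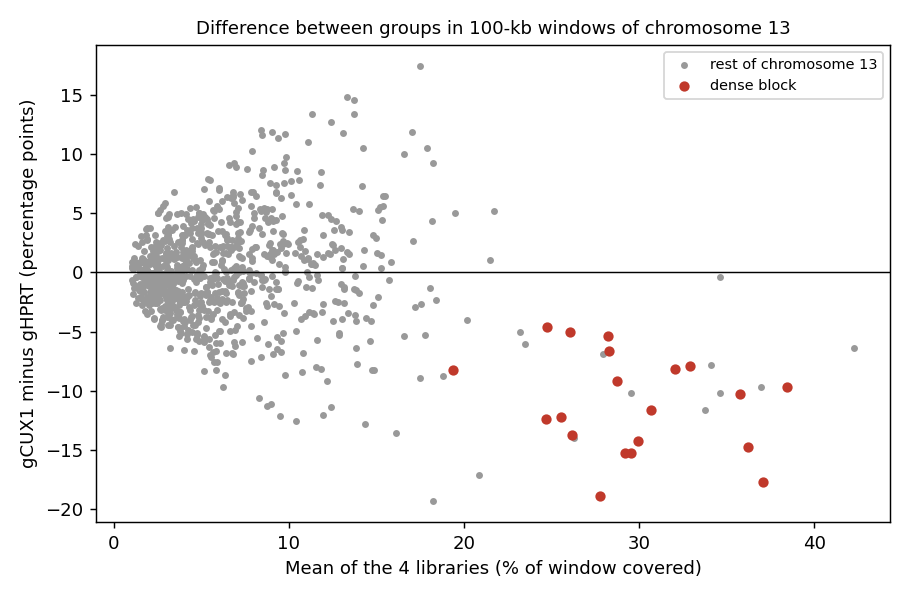
Difference in mean coverage (gCUX1 minus gHPRT, percentage points) against the mean of the 4 libraries for the windows of 100 kb tested on chromosome 13. The 20 windows of the block (red) all lie below 0, and the windows of the rest (grey) scatter on both sides with a median of -0.14 points. Over all windows tested in the genome, whose typical coverage was lower than that of the block, the median was -5.93 points.

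The windows with the smallest unadjusted p did not pass the threshold, and none of them lay in the block. Lower in gCUX1 was chr13:104000001-104100000, with 1.10% and 1.66% in gCUX1 and 11.5% and 10.7% in gHPRT (limma, adjusted p = 0.154). Another was chr13:35200001-35300000, with 1.01% and 0.946% in gCUX1 and 9.25% and 9.34% in gHPRT (adjusted p = 0.172, limma). The other 2 started at 78300001 and 97100001, with means of 3.42% and 3.11% in gCUX1 and 15.5% and 14.4% in gHPRT (limma, adjusted p = 0.185 and 0.186).

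Higher in gCUX1 was chr13:75800001-75900000, with 16.6% and 12.2% in gCUX1 and 4.28% and 0.444% in gHPRT (limma, adjusted p = 0.145). The window chr13:67000001-67100000 had 16.6% and 12.04% in gCUX1 and 1.63% and 3.69% in gHPRT (limma, adjusted p = 0.167). The window chr13:50800001-50900000 had 17.2% and 12.8% in gCUX1 and 1.99% and 4.27% in gHPRT (limma, adjusted p = 0.176). In chr13:20900001-21000000 no peak was listed in either gHPRT library, and 9.77% and 3.92% were covered in gCUX1 (limma, adjusted p = 0.18).

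At 1 Mb the window from 35000001 to 36000000 had the smallest p, with 2.16% and 1.21% in gCUX1 and 6.21% and 4.06% in gHPRT (limma, adjusted p = 0.0833). The windows starting at 102000001, 105000001 and 104000001 followed, with gCUX1 means of 2.81%, 1.31% and 1.80% and gHPRT means of 6.29%, 3.61% and 4.22% (limma, adjusted p = 0.159, 0.245 and 0.254). In the other direction the window from 67000001 to 68000000 had 15.4% and 11.9% in gCUX1 and 8.92% and 7.40% in gHPRT (limma, adjusted p = 0.290). The windows starting at 28000001, 65000001 and 66000001 came after it, with gCUX1 means of 8.43%, 6.48% and 10.8% and gHPRT means of 5.17%, 3.91% and 7.06% (limma, adjusted p = 0.315, 0.322 and 0.334). In the window starting at 66000001 the groups overlapped, with 14.89% and 6.75% in gCUX1 and 7.96% and 6.16% in gHPRT. As a mean of the 4 libraries, each of these windows stayed below every window of the block.

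Chromosome 22 also had a dense stretch and a sparse remainder. From 17 Mb to a single cut fitted in the same way, at 23600000, its peaks covered 18.2% and 33.2% in gCUX1 and 36.0% and 33.7% in gHPRT, against 5.38% and 5.17% beyond the cut in gCUX1 and 6.04% and 4.57% beyond it in gHPRT. On the log2 scale, the ratio of the chromosome 13 block to this stretch was 0.20 and -0.29 in gCUX1 and -0.07 and 0.09 in gHPRT. The cut was placed on coverage, so the step at it is a description. The difference between groups in that ratio was -0.06 (exact permutation p = 1.0, groups overlapping). The gCUX1 mean over the gHPRT mean was 0.684 for the block on chromosome 13 and 0.738 for the stretch on chromosome 22. It was 1.003 outside the block and 0.994 beyond the cut. On the whole chromosomes most covered in gHPRT (6, 7, 1, 5 and 21, in falling order) it was 0.711, 0.667, 0.706, 0.72 and 0.699. A ratio near 0.684 was therefore not particular to the block. Chromosome 14, another sparse chromosome, had 8.67% and 7.37% in gCUX1 and 9.84% and 7.34% in gHPRT, a ratio of 0.933. The ratio of the means was highest on chromosome 13 of all 23 chromosomes, at 0.970, where the groups overlapped.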

How the data were processed

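CUT&RUN was used to map H3K9me2: an antibody brings a nuclease to marked chromatin, and the DNA it frees is sequenced. The submitters' processing notes name hg19, deepTools 3.5.1, MACS2 2.1.0, SAMtools 1.16.1 and BWA 0.7.17; their settings and any background library are not known here. For each library the authors deposited a file of broad peaks with a fold (a ratio over background), −log10 of p and of q, and a score that followed −log10 p, cut to a whole number. Each value belongs to the peak itself, and each file held 250000 peaks.

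Percent covered was computed from peak positions (Python 3.11.15), and peaks were counted by midpoint. An exact two-sided permutation test compared single values. Windows with a mean of at least 1% over chromosomes 1 to 22 and X were fitted with limma (3.58.1, under R 4.3.3, with a trend of the variance on the mean). The fit was also run on simulated windows. These were drawn independently and without shifts between whole lists, so that run does not show how limma behaves on these lists. Named windows were, by rule, those past the threshold or otherwise the 4 per direction with the smallest p. Members and rules were chosen with earlier results of these data known. Gene lists could not be placed without an hg19 annotation and were not used here. Alternatives were common limits on −log10 p and q, equal covered length, other edges, quantile normalization, the replicate number as a block and leaving out each library.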

Additional observations from a re-analysis of the deposited data

How the results depend on the processing

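Over all alternatives the log2 ratio of the block to the rest of the chromosome stayed negative (-1.16 to -0.14), and so did the differences in median width in the block (-717 to -398 bp) and outside it (-601 to -258 bp). Peaks per Mb in the block reversed with the limit on −log10 p (22.3), the limit on −log10 q (38.8) and equal covered length (6.75). They also did so when all serial numbers in the peak names were counted (27.8), and outside the block that count reversed too (-17.8). The serial numbers and the edges in 1-kb bins were chosen after seeing the data. Coverage of the block reversed with the 2 common limits (2.34 and 6.32 points).

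With 1 library left out, coverage in the block differed by -14.2 to -7.96 points, coverage outside by -1.04 to 1.08, the log2 ratio by -0.99 to -0.14, and peaks per Mb by -38.5 to -15.0 in the block and by 4.50 to 24.7 outside. Coverage outside was lower in gCUX1 without gCUX1 replicate 1 (-1.02) and without gHPRT replicate 2 (-1.04). Median width differed by -555 to -404 bp in the block and by -601 to -258 bp outside. The rise stayed at 90.4 Mb and moved to 90.5 Mb only in gCUX1 replicate 2 alone. The distal end lay at 92.4 to 93.4 Mb with 1 library left out, and at 93.4 Mb from gHPRT replicate 1 alone, from both gHPRT libraries and with the limit on −log10 p. An end at 93.4 Mb takes in the second stretch. Why the fit did so only in these settings was not tested.

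Windows called by limma numbered 0 to 30 at 100 kb and 0 to 7 at 1 Mb with 1 library left out, when the lone library is taken to vary like the others. The shares of all windows called in the same fits were 2.36% at 100 kb without gHPRT replicate 2 (30 windows here), 8.4% without gCUX1 replicate 2 (7 here) and 1.13% without gHPRT replicate 1 (7 here). At 1 Mb they were 3.81% without gHPRT replicate 2 (4 here), 61.7% without gCUX1 replicate 2 (7 here) and 12.8% without gCUX1 replicate 1 (1 here). Without a minimum on coverage 1 window of 1 Mb was called, against 4.34% of all windows. With the replicate number as a block, 3 windows of 1 Mb were called (3.12%, against 8.16% of all windows) and 0 of 100 kb (against 0.625%). The labels do not say that equal numbers mark a shared culture, and deviations of same-numbered libraries correlated at 0.112. With the replicate block the single differences keep their values (-11.1 points in the block, 0.02 outside, a log2 ratio of -0.57), and the sign-flip p cannot go below 0.5. Depth was unknown, so the precision it gives was not assessed.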

Other observations

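The serial numbers in the peak names skip values, and what they count is not stated. Over each whole list they ran past the 250000 peaks listed. These peaks made up 55.8% and 65.6% of the highest number in gCUX1 and 58.1% and 64.7% in gHPRT. Whether each list was cut from a longer one is not stated. Of the numbers spanned, the listed peaks made up 44.0% and 67.6% of the numbers in the block in gCUX1 and 79.2% and 80.8% in gHPRT. Outside the block they made up 58.6% and 53.7% in gCUX1 and 28.3% and 38.9% in gHPRT. There were 213 and 173 numbers per Mb in the block in gCUX1 and 169 and 162 in gHPRT, and 98.7 and 70.1 outside in gCUX1 and 124 and 80.1 outside in gHPRT. The ratio of the block to the rest was then 2.15 and 2.47 in gCUX1 and 1.36 and 2.02 in gHPRT, so it was higher in gCUX1, whereas by listed peaks it was lower in gCUX1.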
